A study of Mus musculus with 15 samples.

Results

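Muc2 encodes the main gel-forming mucin of the intestine, and Tff1, Tff2 and Tff3 encode the small trefoil peptides that are secreted together with mucins. The peaks described here are all those of 12 deposited lists that overlap 2 windows of the mouse genome (build mm9), chr7:148860000-148950000 for Muc2 and chr17:31255000-31310000 for the cluster of Tff3, Tff2 and Tff1. The windows span 90 kb and 55 kb. They held 75 of the 778471 peaks in all lists, 34 in the Muc2 window and 41 in the Tff window. In the RefSeq gene table (GRCm38.p6), Muc2 (gene ID 17831) lies between the coding genes Muc6 and Muc5ac. The trefoil genes follow each other there as Tff3 (21786), Tff2 (21785) and Tff1 (21784), between Abcg1 and Tmprss3. That table belongs to a build other than the lists', so its positions were not set against the peaks. Where in a window each gene starts, and whether a peak lies in an exon, an intron or a UTR, was not analysed here. Below, "at Muc2" and "at the Tff genes" mean within these windows, and no peak is assigned to a gene.

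The lists came from intestinal epithelium of C57BL/6 mice. Chromatin immunoprecipitation mapped H3K4me2, which marks promoters and enhancers, in 7 libraries, H3K27ac, a mark of active elements, in 2, and the transcription factor ATOH1 in 1. Open chromatin was mapped in 2 further libraries, as DNase I hypersensitive sites (DHS). Whole lists ran from 15240 peaks (ATOH1) to 92279 peaks (H3K4me2 in DBZ-treated Sec-Pro). Lgr5+ intestinal stem cells (ISC) were sorted for GFP from the crypts of Lgr5-eGFP-Cre mice. Secretory progenitors (Sec-Pro) were enriched in crypts of mice with Rbpj deleted (Rbpj-/-) or given the Notch inhibitor dibenzazepine (DBZ), with 1 H3K4me2 library of each kind. Goblet cells (GOB) came from Rbpj-/- villi. Enterocyte progenitors (Ent-Pro, 2 H3K4me2 libraries) and enterocytes (ENT) came from crypts and villi of Atoh1-/- mice, which per the labels' protocols hold no secretory cells. Every other group had 1 library. The labels name no Cre driver for either deletion, no age, and no preparation (Rbpj-/- or DBZ) for the Sec-Pro H3K27ac, DHS and ATOH1 libraries. ATOH1 was precipitated with an antibody against the FLAG tag, and the tagged allele is not described. No sort is named for Sec-Pro, so other crypt cells may be among them. The secretory and absorptive groups differ in genotype or treatment as well as in lineage, and these cannot be told apart. The lists carry no gene names or expression, so the labelled cell types were not checked against marker genes.

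Goblet cells store mucin in granules and release it to form the layer of mucus over the epithelium. MUC2 forms the polymer of that layer, and TFF3 is the trefoil peptide of intestinal goblet cells, whereas TFF1 and TFF2 are known mainly from the stomach. ATOH1 is a basic helix-loop-helix factor that the secretory cells of the intestine require. Factors of this family bind E-boxes, the motif CANNTG. Notch signalling through RBPJ represses Atoh1, and blocking it turns crypt cells to the secretory fate.

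Of the 4 genes, 1 was found in the RefSeq promoter table (GRCm38.p6), Muc2. Its 250 bases before the annotated start (GRCm38.p6, chr7:141690090-141690339, plus strand) are shown because ATOH1 peaks lay in the window of this gene. Capitals mark the E-boxes, and CANNTG and CAGCTG read the same on both strands.
Muc2 promoter: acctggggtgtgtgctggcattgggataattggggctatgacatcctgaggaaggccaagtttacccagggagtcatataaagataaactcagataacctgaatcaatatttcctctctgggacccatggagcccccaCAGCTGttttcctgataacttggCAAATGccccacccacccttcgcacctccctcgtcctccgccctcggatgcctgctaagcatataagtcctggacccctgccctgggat
The sequence holds 2 E-boxes. CAGCTG ends 107 bases before the start, and CAAATG ends 84 bases before it. Any CANNTG was present in 66.2% of the 32851 promoters of that length in the table, and CAGCTG, which is also counted as a CANNTG, in 13.0%. These matches are descriptions of the sequence. No mm9 genome was used, so neither the promoter nor the peaks' own sequences could be set against each other.

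Both windows were covered most by H3K4me2 in goblet cells. GOB peaks covered 14774 bp of the Muc2 window (16.4%) and 9555 bp of the Tff window (17.4%). Over all assembled chromosomes, between the first and last peak of any list, GOB peaks covered 2.50%. The shares of the windows were 6.56 and 6.95 times that share. ENT peaks covered 310 bp of the Muc2 window (0.344%) and 1531 bp of the Tff window (2.78%), against 2.70% of the chromosomes. The GOB list was therefore no wider than the ENT list over the genome, but covered 14464 bp more at Muc2 and 8024 bp more at the Tff genes. With 1 library of each, no test between the cell types could be made. In bulk chromatin, more marked cells and more of the mark per cell cannot be told apart.

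**Figure D1:**
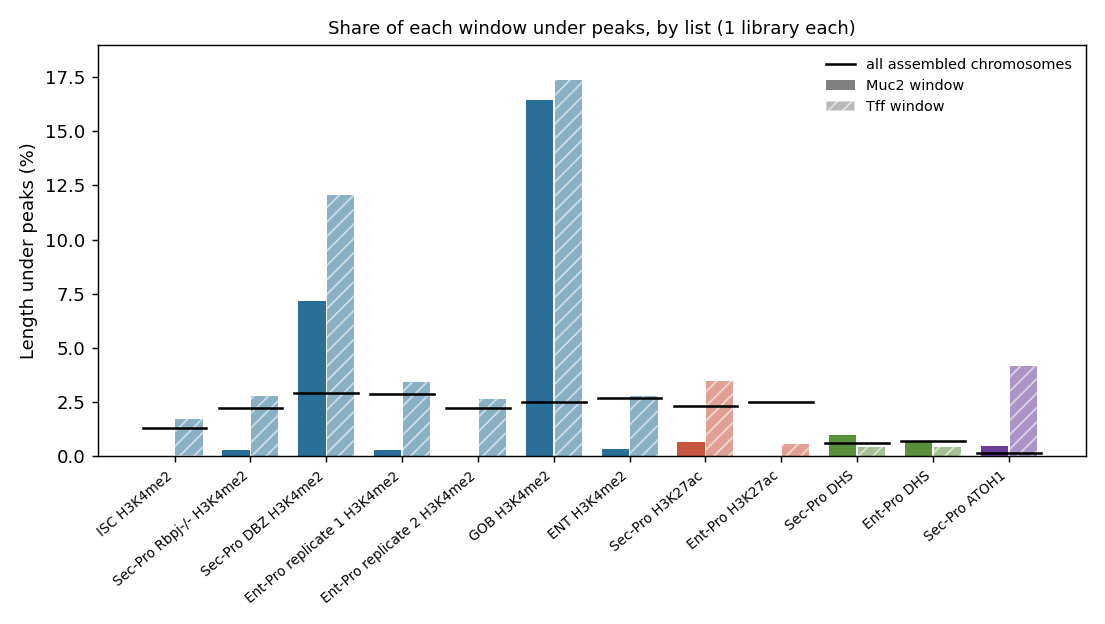
Share of the Muc2 window (plain bars) and the Tff window (hatched bars) under peaks in each of the 12 lists, in percent of the window's length, with the black line giving the share of all assembled chromosomes. GOB H3K4me2 reached 16.4% and 17.4%, followed by DBZ-treated Sec-Pro H3K4me2 with 7.18% and 12.04%.

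At Muc2, GOB had 11 peaks, of which 3 were at least 1000 bp wide. The widest covered 7859 bp (chr7:148876130-148883988, score 106), more than 99.9% of the GOB peaks in width. The authors' score ranks peaks within a list and is not compared between lists; 87.6% of GOB peaks had a lower one. A peak of 3885 bp (chr7:148872185-148876069, score 60.9) lay 60 bp before it. With 3 short peaks after them, at chr7:148884146-148884487, chr7:148884646-148884866 and chr7:148885308-148885897, they formed a stretch of 13713 bp when gaps of up to 1 kb were joined. The highest score, 109, belonged to a peak of 3677 bp (chr7:148856831-148860507) that lay mostly before the window.

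The remaining GOB peaks of the Muc2 window were short and stood apart. A group at chr7:148862103-148862249, chr7:148862360-148862931 and chr7:148863209-148863555 had scores of 4.86, 17.3 and 11.1. Far to the other side lay chr7:148931213-148931358 and chr7:148932636-148932792, with scores of 2.81 and 3.21, among the lowest in the list. No list had a peak in the 45.3 kb between chr7:148885898 and chr7:148931212.

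Enterocytes had 2 H3K4me2 peaks in the Muc2 window. The first, chr7:148879502-148879665, scored 2.71, and the second, chr7:148885492-148885637, scored 4.48. Only 1.03% and 9.17% of ENT peaks had lower scores. Both lay inside GOB peaks.

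**Figure D2:**
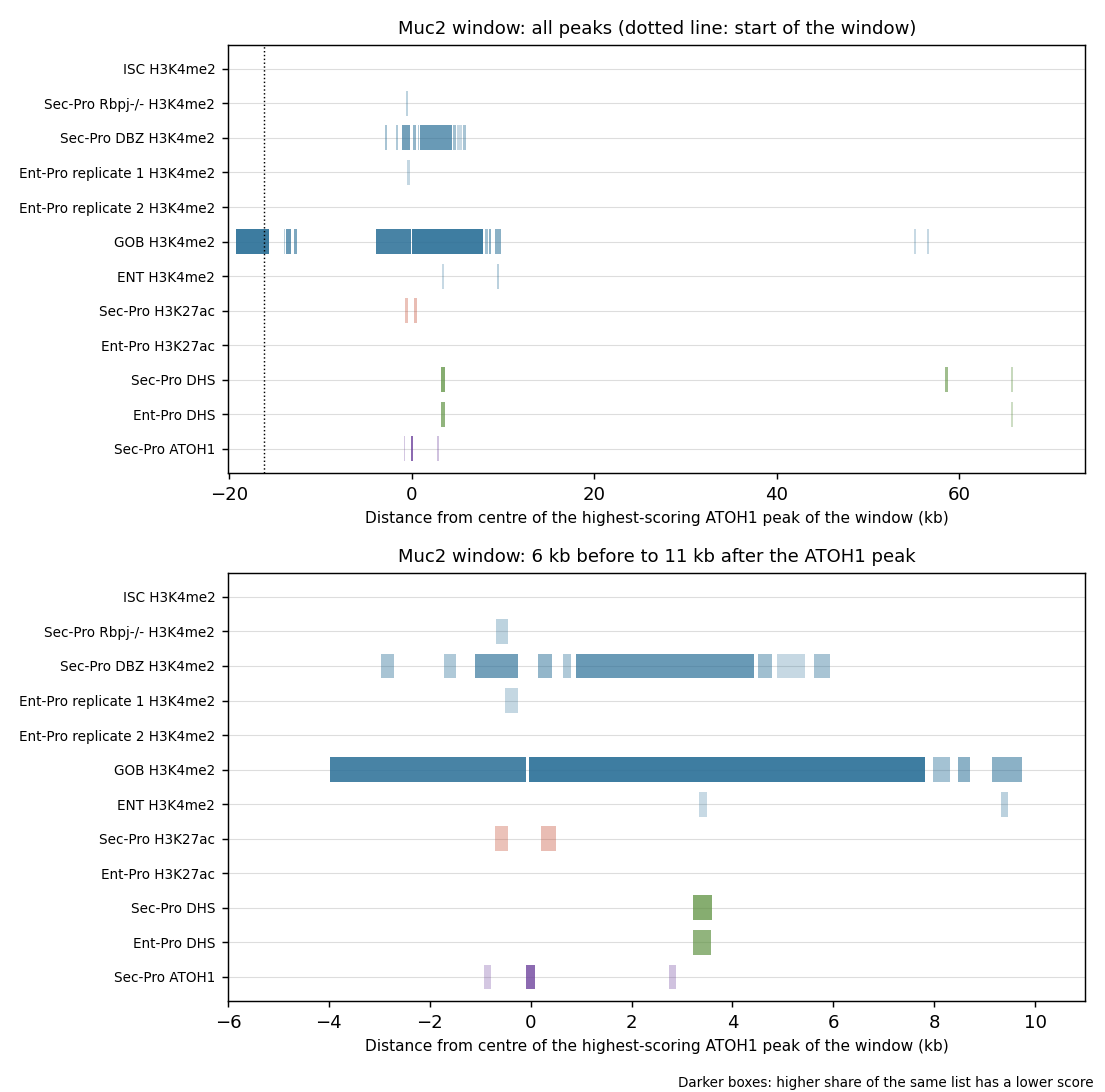
Peaks of the 12 lists in the Muc2 window, by distance in kb from the centre of the highest-scoring ATOH1 peak of the window, over the whole window (upper panel) and near that peak (lower panel); each row is a list and darker boxes rank higher by score in their own list. The wide GOB peaks and the 9 narrower DBZ-treated Sec-Pro peaks surround the ATOH1 peak, and the ISC, Ent-Pro replicate 2 and Ent-Pro H3K27ac rows are empty within the window. The upper panel begins before the window's start (dotted line). Peaks that lie wholly outside the window are not drawn, although several lists have them there.

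At the Tff genes, GOB again had 11 peaks, of which 4 were at least 1000 bp wide. From the start of the window onward these were chr17:31262151-31265354 (3204 bp, score 96.8), chr17:31265476-31266948 (1473 bp, score 72.0), chr17:31267276-31268747 (1472 bp, score 47.9) and chr17:31270804-31272477 (1674 bp, score 123). With gaps of up to 1 kb joined, 9 of the GOB peaks formed a stretch of 11700 bp, chr17:31262151-31273850. The last of the 4 was the highest-scoring of the window, above 89.7% of the list. The 6 remaining regions marked in GOB and not in ENT were short. Before the highest-scoring peak they were chr17:31268926-31269119 and chr17:31269660-31269925, with scores of 8.25 and 5.60. After it came chr17:31272936-31273363 (score 16.3), chr17:31273632-31273850 (score 5.06), chr17:31274929-31275083 (score 6.09) and chr17:31275651-31275833 (score 10.6). All of these lay in the first part of the window, and no list had a peak in its final 28.8 kb.

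Enterocytes had 3 H3K4me2 peaks at the Tff genes, each inside a GOB peak. The widest, chr17:31270915-31272033 (1119 bp, score 31.7), outscored 70.6% of the ENT list. The others, chr17:31266631-31266852 and chr17:31268207-31268396, scored 4.02 and 6.20. The Tff window therefore held 1 sizeable peak in enterocytes, whereas the Muc2 window had none.

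Counted by peak, 8 of 11 GOB peaks at Muc2 and 8 of 11 at the Tff genes overlapped no ENT peak. Over the whole GOB list the share was 24.8%. Of the 5 ENT peaks in the windows, none lacked a GOB peak, against 29.2% of all ENT peaks. The 1 GOB peak at Muc2 that crosses the window's edge met an ENT peak outside the window, and 8 of the other 10 met none. Among the upper 50% of both lists by score, 4 of 4 GOB peaks at Muc2 and 5 of 6 at the Tff genes met no ENT peak, against 18.4% of that part of the GOB list. This cut also removed ENT peaks, including both at Muc2.

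The GOB peaks also overlapped every H3K4me2 peak of the other populations in these windows. All 13 peaks of the 6 other H3K4me2 lists at Muc2 and all 17 at the Tff genes overlapped a GOB peak, against 73.2% of the peaks in those lists as a whole. The overlap was not always complete, and at the Tff genes 91.1% of the length under ISC peaks and 96.5% of that under DBZ peaks lay under GOB peaks. Merging overlapping peaks of the 7 lists left 11 regions at Muc2 and 9 at the Tff genes. GOB alone marked 7 and 6 of them. What share of merged regions GOB alone marks over the whole lists was not computed. No Muc2 region was marked in more than 4 lists, and 1 Tff region, chr17:31270434-31272477, was marked in all 7. Regions were counted whole. The Muc2 region chr7:148856831-148860507 crosses the window's edge, and the ISC, DBZ and ENT peaks counted in it lie before the window.

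**Figure D3:**
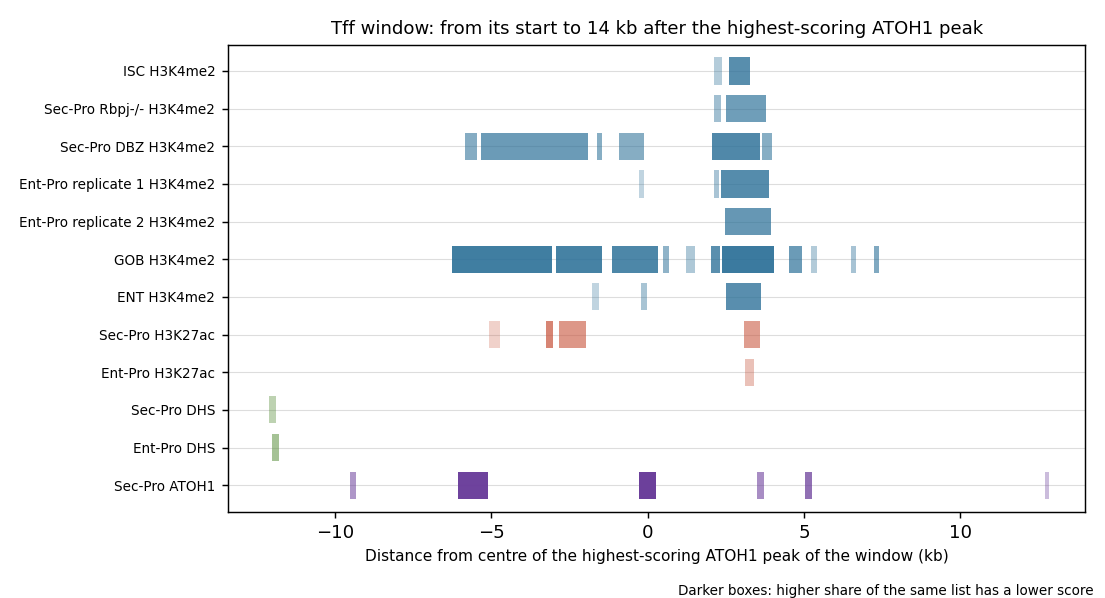
Peaks of the 12 lists in the first part of the Tff window, by distance in kb from the centre of its highest-scoring ATOH1 peak, with 1 row per list and darker boxes for higher ranks by score. The region about 3 kb after the ATOH1 peak carries H3K4me2 in all 7 lists, whereas the stretch before it is covered chiefly in GOB and DBZ-treated Sec-Pro.

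Stem cells had no H3K4me2 peak in the Muc2 window. At the Tff genes they had 2, chr17:31270555-31270804 (250 bp, score 3.86) and chr17:31271024-31271706 (683 bp, score 10.3), and the second outscored 71.0% of the ISC list. Both lay in the region marked in all 7 lists. ISC peaks covered 1.696% of the Tff window and 1.30% of the chromosomes.

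By count, most GOB peaks of the windows had no counterpart in crypt cells. Those without one were short. Each GOB peak of at least 1000 bp (3 at Muc2 and 4 at the Tff genes) overlapped a peak of DBZ-treated Sec-Pro. How often GOB peaks of that width do so over the whole list was not computed, so this count has no share to be set against. Stem cells marked 1 of 11 at Muc2 and 2 of 11 at the Tff genes, against 42.2% of the GOB list. Rbpj-/- Sec-Pro marked 1 and 2 (56.4% of the list), and DBZ-treated Sec-Pro 3 and 5 (67.5%). Ent-Pro replicate 1 marked 1 and 3 (68.1%), and replicate 2 marked 0 and 1 (56.9%). H3K27ac was found at 3 and 3 of them in Sec-Pro (55.0%) and at 0 and 1 in Ent-Pro (56.9%). ATOH1 differed from these, with a peak at 3 and 4 of the GOB peaks, against 9.46% of the list. In the Muc2 counts, the peak that crosses the window's edge supplied the 1 for stem cells and 1 of those for DBZ-treated Sec-Pro, H3K27ac and ATOH1. Wide peaks can meet others more easily, and widths were not matched.

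Secretory progenitors were compared with enterocyte progenitors to ask whether the windows of the goblet genes are marked before maturity. At Muc2, H3K4me2 covered 250 bp in Rbpj-/- Sec-Pro and 6465 bp in DBZ-treated Sec-Pro. It covered 261 bp in Ent-Pro replicate 1 and 0 bp in replicate 2. The DBZ library stood apart. The Rbpj-/- library lay between the Ent-Pro libraries, but its 250 bp and the 261 bp of Ent-Pro replicate 1 were 1 low-scoring peak each. The mean was 3357.5 ± 4395 bp for the secretory and 130.5 ± 185 bp for the enterocyte progenitors (SD, n = 2 each). The secretory SD spans 2 kinds of preparation, Rbpj-/- and DBZ, with 1 library each. The difference was 3227 bp, smaller than that SD (exact permutation test, two-sided, p = 0.667, where the smallest possible p is 0.333). The difference was 119.5 bp without the DBZ library. With the lists cut to the same number of peaks it was 2460 bp, with p = 0.333 by the same exact permutation test (two-sided).

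The Tff genes gave the same order of libraries at the top. H3K4me2 covered 1517 bp in Rbpj-/- Sec-Pro and 6621 bp in DBZ-treated Sec-Pro, 1880 bp in Ent-Pro replicate 1 and 1449 bp in replicate 2. Again the DBZ library alone was high, and the Rbpj-/- library lay between the Ent-Pro libraries. Means were 4069 ± 3609 bp for the secretory and 1664.5 ± 305 bp for the enterocyte progenitors (SD, n = 2 each), with p = 0.667 by the same exact permutation test (two-sided). Without the DBZ library the difference of 2404.5 bp turned to -147.5 bp.

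The lists also differ in their shortest peak, which is 146 bp for DBZ-treated Sec-Pro and Ent-Pro replicate 1 and 200 bp for the other pair, for reasons the labels do not give. Between the 146-bp lists, Sec-Pro exceeded Ent-Pro by 6204 bp at Muc2 and by 4741 bp at the Tff genes. Between the 200-bp lists it did so by 250 bp and 68 bp. Preparation and kind of list cannot be told apart within Sec-Pro.

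The 9 DBZ peaks at Muc2 were mostly short and low. The widest was chr7:148877058-148880591 (3534 bp, score 22.4), wider than 98.3% of its list, and 60.2% of the list scored lower. Next by score came chr7:148875069-148875910 (842 bp, score 17.2). The other 7 scored from 3.35 to 8.78. All 9 overlapped GOB peaks, against 65.5% of the DBZ list, and every base under them was also under a GOB peak, against 63.3% of the length under the DBZ list. They filled 43.8% of the GOB-covered length, below the 73.7% found over the whole GOB list. Of the 9, 8 met no peak of Ent-Pro replicate 1, against 18.4% of the DBZ list, and 8 met none of Rbpj-/- Sec-Pro, against 37.6%.

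The single Rbpj-/- peak at Muc2, chr7:148875470-148875719, scored 4.54, and the single Ent-Pro replicate 1 peak, chr7:148875647-148875907, scored 3.61. They overlapped each other and the DBZ peak at chr7:148875069-148875910. Only 7.31% and 3.03% of their lists scored lower.

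At the Tff genes, DBZ-treated Sec-Pro had 6 peaks, all overlapping GOB peaks (65.5% of the list). They filled 66.9% of the GOB-covered length, against 73.7% over the whole GOB list. The highest-scoring, chr17:31270477-31272017 (1541 bp, score 56.3), lay in the region shared by the 7 lists. The widest, chr17:31263102-31266509 (3408 bp, score 21.0), ran across the 2 GOB peaks nearest the window's start, where neither Ent-Pro library, Rbpj-/- Sec-Pro nor ISC had a peak. Of the 6, 3 met no peak of Ent-Pro replicate 1 (18.4% of the list) and 4 met none of Rbpj-/- Sec-Pro (37.6%). In the shared region the highest scores were 18.2 in Rbpj-/- Sec-Pro, 48.3 in Ent-Pro replicate 1 and 26.0 in replicate 2, above 56.5%, 72.7% and 62.1% of their lists.

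**Figure D4:**
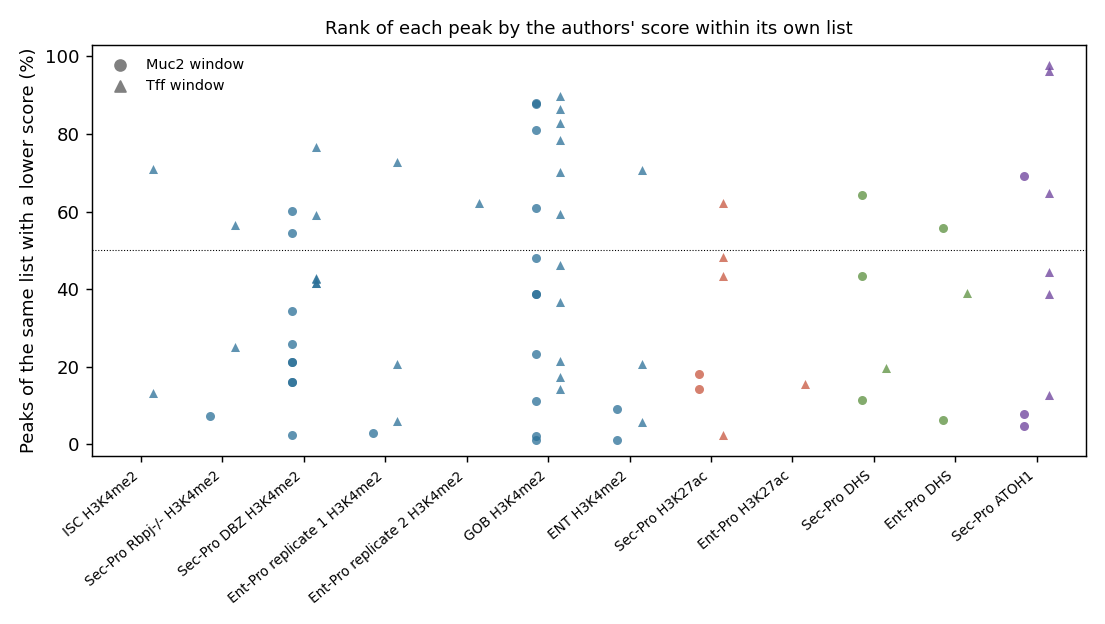
Rank of each of the 75 peaks in its own list, as the percentage of that list's peaks with a lower score, for the Muc2 window (circles) and the Tff window (triangles); the dotted line is at 50%. The 2 highest points are ATOH1 peaks of the Tff window, at 97.7% and 96.2%, and no peak outside the GOB, DBZ-treated Sec-Pro, DHS and ATOH1 lists ranks above 50% at Muc2.

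H3K27ac was compared between the progenitors in 1 library each. At Muc2, Sec-Pro had 2 peaks and Ent-Pro none. They were short and low, chr7:148875451-148875721 (271 bp, score 4.89) and chr7:148876367-148876675 (309 bp, score 5.46), with 14.4% and 18.1% of the list below them. The first contained the whole H3K4me2 peak of Rbpj-/- Sec-Pro. Together they covered 580 bp, which is 0.644% of the window and below the 2.32% of the chromosomes under Sec-Pro H3K27ac peaks.

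At the Tff genes Sec-Pro had 4 H3K27ac peaks and Ent-Pro 1. Those of Sec-Pro were chr17:31263360-31263684 (score 3.36), chr17:31265157-31265402 (score 15.8), chr17:31265601-31266439 (score 10.4) and chr17:31271499-31271999 (score 8.84). The Ent-Pro peak, chr17:31271523-31271832 (score 5.34), lay inside the last of these, in the region with H3K4me2 in all 7 lists. H3K27ac covered 1911 bp in Sec-Pro against 310 bp in Ent-Pro, which are 3.47% and 0.564% of the window against 2.32% and 2.48% of the chromosomes.

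Of the Sec-Pro H3K27ac peaks, 2 of 2 at Muc2 and 3 of 4 at the Tff genes had no Ent-Pro counterpart, against 20.2% over the whole list. None of these peaks scored high, the strongest outscoring 62.3% of the list. Restricted to the upper 50% of each list, the H3K27ac difference was 0 bp at Muc2 and 246 bp at the Tff genes, where the main values were 580 bp and 1601 bp. All 7 H3K27ac peaks of the windows overlapped GOB H3K4me2, against 64.1% of both lists together.

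Open chromatin was similar in the progenitors and lay elsewhere than most of the histone marks. At Muc2 the strongest DHS was found in both, at chr7:148879374-148879758 in Sec-Pro (385 bp, score 39.9) and at chr7:148879376-148879746 in Ent-Pro (371 bp, score 20.3), above 64.3% and 55.7% of their lists. It lay inside the widest GOB peak and the widest DBZ peak, and the lower-scoring ENT peak of this window fell within it. A further DHS, chr7:148934611-148934901 (score 16.5), was listed in Sec-Pro alone. The last one was again found in both progenitors, at chr7:148941849-148942048 in Sec-Pro (score 8.51) and chr7:148941855-148942054 in Ent-Pro (score 6.04).

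Of the 3 Sec-Pro DHS at Muc2, 1 had no Ent-Pro counterpart, against 14.6% of the list, and neither Ent-Pro DHS lacked a Sec-Pro one, against 29.8%. The Tff window had 1 DHS in each progenitor, which overlapped each other. These were chr17:31256321-31256548 in Sec-Pro (score 9.77) and chr17:31256397-31256619 in Ent-Pro (score 11.8). No DHS of either progenitor fell under the 11 GOB peaks there, and the nearest GOB peak lay 5532 bp from the Ent-Pro site. Over the whole GOB list 22.0% of peaks held a Sec-Pro DHS and 25.2% an Ent-Pro DHS.

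ATOH1, mapped in Sec-Pro, had 3 peaks at Muc2 and 6 at the Tff genes. They covered 0.483% and 4.15% of the windows, against 0.132% of the chromosomes, or 3.66 and 31.4 times that share. The 2 strongest sites were in the Tff window. The site at chr17:31268145-31268702 (558 bp) scored 59.2, above 97.7% of the ATOH1 list, and the one at chr17:31262345-31263301 (957 bp) scored 45.8, above 96.2%. The latter was also wider than 99.8% of ATOH1 peaks.

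Each of these strong sites lay wholly under GOB H3K4me2 and in part under H3K4me2 of DBZ-treated Sec-Pro. DBZ peaks covered 586 of the 957 bp at chr17:31262345-31263301, which held a gap of 149 bp between DBZ peaks. They covered 147 of the 558 bp at chr17:31268145-31268702, and the rest fell in a gap of 2185 bp. The site at chr17:31262345-31263301 met no H3K4me2 peak of Rbpj-/- Sec-Pro, Ent-Pro, ENT or ISC. A Sec-Pro H3K27ac peak began 59 bp after it. The site at chr17:31268145-31268702 met small peaks of Ent-Pro replicate 1 (score 4.21) and ENT (score 6.20) as well. H3K4me2 was thus also listed at that site in cells without Atoh1, at low scores.

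The other 4 ATOH1 peaks at the Tff genes were weaker. The peak at chr17:31271926-31272142 (score 5.92) lay in the region marked by H3K4me2 in all 7 lists and met every H3K4me2 list but ISC. The peak at chr17:31273451-31273676 (score 8.62) met H3K4me2 of GOB alone (score 5.06). Those at chr17:31258887-31259082 (score 5.66) and chr17:31281117-31281247 (score 3.77) met no peak of any other list.

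At Muc2 the strongest ATOH1 site, chr7:148876078-148876250 (173 bp), scored 9.65, above 69.2% of the list. It began inside the gap of 60 bp between the 2 wide GOB peaks, with 121 of its 173 bp under the second of them, and sat in a gap of 392 bp between DBZ peaks. Sec-Pro H3K27ac lay on either side, the nearer peak 117 bp away. The other sites, chr7:148875243-148875373 (score 3.21) and chr7:148878910-148879040 (score 3.47), were each 131 bp wide, the shortest width in the list, and only 4.69% and 7.79% of the list scored lower. The last one ended 334 bp before the Sec-Pro DHS.

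None of the 9 ATOH1 peaks overlapped a DHS of Sec-Pro or Ent-Pro, against 33.9% and 37.0% of all ATOH1 peaks that did. At the strong Tff sites the nearest Sec-Pro DHS was 5797 bp and 11597 bp away, where the median over the ATOH1 list was 1873 bp. The ATOH1 and DHS lists were made from separate libraries of unknown depth, so a missing DHS is not shown to be closed chromatin. GOB H3K4me2 was found at 3 of 3 ATOH1 peaks at Muc2 and at 4 of 6 at the Tff genes, against 62.8% of the list. The count at the Tff genes was near that share. ENT H3K4me2 was found at 0 of 3 and 2 of 6, against 55.0%. DBZ H3K4me2 was found at 2 of 3 and 3 of 6, against 58.9%, a share near that of the list.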

How the data were processed

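Of 15 samples, 12 had a peak list, and the 3 of input DNA were not used here. The build mm9 and the tools CASAVA 1.7, Bowtie 0.12.7 and MACS2 stand in the submitters' processing notes. Their parameters are not stated in the labels. The authors deposited 1 list per library, in 5 columns without a header, with a score per peak whose scale is not named. Read depth is unknown. The labels do not say whether replicates came from separate animals.

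Peaks overlapping a window by 1 bp were taken whole, and covered lengths were cut to the window. Overlap with another list needed 1 bp. Shares over whole lists stand beside each count in place of a test. Distances run between the nearest end positions. Covered length in 2 Sec-Pro and 2 Ent-Pro libraries was compared by an exact permutation test. All ATOH1 peaks, all DHS, the highest-scoring peak of each histone list and all H3K4me2 regions that differed between GOB and ENT were to be named. Other peaks were named after their values were seen. Members and lists were chosen with earlier results of these data known. Overlap counts were tested on simulated data. Python 3.11.15, NumPy 2.4.6 and matplotlib 3.10.9 were used.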

Additional observations from a re-analysis of the deposited data

How the results depend on the processing

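The lists give no read depth, so what was not called may still be marked, and most groups are single libraries. No paired analysis was possible because the labels give the Sec-Pro libraries no replicate numbers. When 1 progenitor library was left out at a time, the H3K4me2 difference (Sec-Pro minus Ent-Pro) ranged from 119.5 to 6334.5 bp at Muc2 and from -147.5 to 4956.5 bp at the Tff genes. With the upper 50% of each list by score, GOB minus ENT was 12824 bp at Muc2 and 7419 bp at Tff. GOB peaks without an ENT peak numbered 4 of 4 and 5 of 6, against 18.4% of that part of the GOB list. The cut left no ENT peak at Muc2, so the count there was fixed by it. The H3K27ac difference was then 0 and 246 bp, and the DHS difference 14 bp (305 bp in full) and 0 bp (5 bp in full). With windows 10 kb wider on each side, the Muc2 differences were 19580 bp (GOB minus ENT), 879 bp (H3K27ac) and 64 bp (DHS), and no Tff value moved. With lists cut to the same number of peaks, GOB minus ENT at Muc2 was 14628 bp, the DHS difference there 505 bp and the H3K27ac difference at Tff 1276 bp. The progenitor H3K4me2 difference was then 2460 bp at Muc2 and 2567 bp at Tff (exact permutation test, two-sided, p = 0.333 and p = 0.667). With peaks wholly inside the window, chosen after seeing the data, GOB minus ENT at Muc2 was 13956 bp. The progenitor H3K4me2 difference, 3227 bp at Muc2 and 2404.5 bp at Tff with all libraries, was 250 and 68 bp between the lists with a 200-bp shortest peak, so its size depended on the libraries used.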

Other observations

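Just before the Muc2 window, the GOB peak at chr7:148856831-148860507 covered an ATOH1 peak at chr7:148859321-148859655 that scored 17.8, above 85.0% of the ATOH1 list and above all 3 ATOH1 peaks inside the window. A Sec-Pro H3K27ac peak (chr7:148858654-148859312, score 5.60) ended just before it. DBZ-treated Sec-Pro had 5 H3K4me2 peaks in the 10 kb before the window, the strongest at chr7:148857804-148859287 (score 27.9). Rbpj-/- Sec-Pro and Ent-Pro had none. ISC and ENT had 1 weak peak each (scores 5.07 and 3.06). Which of the neighbouring mucin genes this region belongs to was not tested.

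In the 10 kb after the Muc2 window, H3K4me2 at chr7:148956388-148957519 in GOB (score 25.8) was also listed in ENT, DBZ-treated Sec-Pro and both Ent-Pro libraries. H3K27ac (chr7:148956624-148956983, score 15.2) and a DHS (chr7:148957064-148957304, score 8.24) were listed there in Ent-Pro alone. In the 10 kb on either side of the Tff window no list had a further peak.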
